A study of Mus musculus with 4 samples.

Results

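The replication-dependent histone genes encode the core histones H2A, H2B, H3 and H4 and the linker histone H1 that package newly made DNA. They were taken as every gene whose mouse symbol begins with Hist1h, Hist2h, Hist3h or Hist4h. The deposited tables held 62 of the 70 such genes in the annotation, among 39179 gene identifiers in all. The other 8 (Hist1h2bh, Hist1h2bm, Hist2h2bb, Hist1h3d, Hist1h3f, Hist1h3g, Hist1h3h and Hist1h3i) have no level here and enter only the descriptions of sequence. By protein class the 62 comprised 6 H1, 20 H2A, 16 H2B, 7 H3 and 13 H4 genes, and 3 of them (Hist1h2aj, Hist1h2al and Hist3h2bb-ps) are annotated as pseudogenes.

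The libraries came from OT-II T cells, all of which carry 1 transgenic receptor for ovalbumin and had been moved into C57BL/6 hosts. Every host was immunised under the skin with nitrophenol coupled to ovalbumin, and cells were taken on day 8 from pooled inguinal lymph nodes, so no unimmunised sample enters the comparison. Transferred cells were recognised by Thy-1.1, which sets them apart from the T cells the hosts still had, and were sorted as CD44hi. Those with the phenotype CXCR5+ PD-1+ form the follicular helper group (Tfh, the T cells that support germinal centre B cells), and those with the phenotype CXCR5- PD-1- the non-Tfh group. There were 2 libraries in each group, numbered T32 and T53. What the numbers stand for, and whether the libraries came from separate animals, is not in the labels, so each p-value is relative to a spread between samples that may be technical.

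Histone proteins are needed in bulk only while DNA is copied, and the messenger RNAs of these genes rise in S phase and are destroyed when it ends. They are the only animal messenger RNAs known to end without a poly(A) tail: a stem-loop just after the coding sequence is bound by the protein SLBP, and the U7 ribonucleoprotein guides the cut behind it. Activated T cells divide fast, and histone transcripts are widely read as a sign of cells in S phase. Some histone genes are also known to make longer, polyadenylated transcripts outside S phase. The libraries were prepared from total RNA, which keeps transcripts without poly(A).

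The stem-loop is shown first because a poly(A)-selected library would miss transcripts that end at it. A hairpin in a gene does not exclude longer transcripts with poly(A) from that gene. Of 67 protein-coding members in the annotation, 62 had no intron and 51 had a gene model that ran at least 40 bases past the stop codon. A hairpin of 16 bases was searched for within 150 bases of the stop codon. The search asked for a perfect 6-base stem that began with GG and a 4-base loop that began with TT. Other hairpins, such as those with a mismatch in the stem, were not looked for. The hairpin was found in 43 of the 51, 22 to 59 bases (median 32) after the stop codon. Only 6 forms occurred, and 1 gene stands for each here, with the hairpin in capitals and up to 5 bases on either side, 5′ to 3′, from the GENCODE vM21 transcripts:
Hist1h1c: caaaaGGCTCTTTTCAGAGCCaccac
Hist1h3e: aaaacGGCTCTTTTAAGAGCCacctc
Hist2h2ac: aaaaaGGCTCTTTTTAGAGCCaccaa
Hist1h4f: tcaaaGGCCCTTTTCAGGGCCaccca
Hist1h4j: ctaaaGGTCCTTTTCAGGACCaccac
Hist2h4: ctaacGGCCCTTTTTAGGGCCaacca

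The form of Hist1h1c (GRCm38 hairpin at chr13:23739512-23739527, plus strand) was carried by 25 genes of the H1, H2A, H2B and H3 classes. That of Hist1h3e (chr13:23561903-23561918, minus strand) was carried by 6 genes, and that of Hist2h2ac (chr3:96220418-96220433, minus strand) by 1. The 3 remaining forms occurred only in H4 genes among the 43: that of Hist1h4f (chr13:23551291-23551306, minus strand) in 7, that of Hist1h4j (chr13:21735437-21735452, plus strand) in 2, and that of Hist2h4 (chr3:96262939-96262954, minus strand) in 2. All 6 forms share the outer 2 base pairs of the stem and a loop that starts with TT, as the search required. They also share the inner 2 base pairs and the next T of the loop. The forms differ in the loop's last base and in the middle 2 pairs.

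The promoters are shown as a description of sequence, and their part in the differences between libraries was not tested. RefSeq windows of 300 bases (GRCm38.p6, 250 before to 50 after the start) were found for 61 members. Motifs were searched on both strands. CCAAT is the letters of the box bound by NF-Y, TATAAA those of a TATA box, and ATTTGCAT those of the octamer bound by Oct1. Matches were counted at any position, so a TATAAA match need not be a working TATA box. The only match in the printed stretch of Hist1h4f begins 250 bases before the start. No motif contains another, though the end of CCAAT can be the start of the octamer. Below are the 250 bases before the start of Hist1h2bb (chr13:23746484-23746733, plus strand), of Hist1h4f (chr13:23551669-23551918, minus strand) and of Hist3h2a (chr11:58954435-58954684, plus strand), with every match on either strand in capitals:
Hist1h2bb: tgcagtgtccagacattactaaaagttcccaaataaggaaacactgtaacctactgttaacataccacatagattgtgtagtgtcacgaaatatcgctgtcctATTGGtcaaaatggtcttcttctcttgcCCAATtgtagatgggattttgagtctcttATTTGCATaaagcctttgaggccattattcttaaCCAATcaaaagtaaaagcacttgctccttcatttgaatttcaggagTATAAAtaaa
Hist1h4f: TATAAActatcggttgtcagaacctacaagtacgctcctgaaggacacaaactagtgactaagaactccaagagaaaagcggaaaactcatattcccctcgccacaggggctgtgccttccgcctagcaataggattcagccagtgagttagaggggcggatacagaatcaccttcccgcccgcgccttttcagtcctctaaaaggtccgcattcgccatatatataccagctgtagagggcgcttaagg
Hist3h2a: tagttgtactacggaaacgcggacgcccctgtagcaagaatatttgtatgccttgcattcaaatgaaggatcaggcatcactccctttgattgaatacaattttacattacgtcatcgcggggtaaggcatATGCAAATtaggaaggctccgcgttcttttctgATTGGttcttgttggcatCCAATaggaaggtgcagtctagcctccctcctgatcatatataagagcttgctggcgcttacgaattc

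CCAAT was present in the windows of all 6 H1, 17 H2A, 16 H2B and 10 H3 genes, but in 3 of 12 H4 genes, against 37.4% of the 32851 promoters in the table. TATAAA was present in 35 of the 61 windows (57.4%), against 13.6% of all promoters. The octamer was present in 7 of 17 H2A and 6 of 16 H2B windows, in no H1, H3 or H4 window, and in 1.74% of all promoters. Among the 61 windows, in 9 cases an H2A and an H2B gene lie head to head, so that their windows overlap by 220 to 279 bases. Hist1h2ak and Hist1h2bn, with 263 shared bases, are such a pair. Pairs with a gene that had no window could not be counted, as with Hist2h2ac and Hist2h2be, where Hist2h2be had none. A match is a description of the letters and not of a bound site. The genes with the same letters share sequence, and many lie side by side, so they are not independent.

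Near-identical copies share reads, which limits what a single member's count means. The 13 H4 genes all encode 1 protein of 103 residues, the 12 coding H3 genes encode 3 distinct proteins, the 18 H2A genes 9, the 18 H2B genes 12 and the 6 H1 genes 6. Of the 75-base stretches (the read length) of a tested member's transcripts, a median of 36.8% were also found in transcripts of another gene, with at least 50% in 21 of the 50 members tested. Both strands were searched, and genes that overlap a member at its own position counted as other genes. These shares are thus not of near-identical copies alone. Hist2h2be, Hist2h4, Hist1h1a and Hist1h1b shared none. Among members with no count in any library, Hist2h2aa2 and Hist2h3c1 shared 100% of their stretches, Hist1h2aj 92.4%, Hist1h4m 89.0%, Hist1h2aa 17.4% and Hist1h1t none, and Hist2h3b shared 100% and did have counts. How reads with several positions were counted is not given in the sources used here, so levels of single H2A, H2B, H3 and H4 genes are uncertain, and sums over a class may miss such reads. Some gene models also overlap others, as Hist1h1e and Hist1h2be do on the same strand. Hist2h3b and all H2A genes analysed overlap a gene on the other strand, which adds to their shared stretches.

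Library totals ran from 5725358 to 13360563 counts. Mitochondrial genes took 17.2 to 22.2% of the counts. Cxcr5 and Pdcd1, the genes of the sorted proteins, were higher in both Tfh libraries, which checks the labels. The T cell markers were all detected, with summed levels of 7718 and 8868 CPM (the count scaled to library size, with TMM factors for composition) in Tfh and 7051 and 7832 CPM in non-Tfh libraries. Of other cells' markers, the 8 B cell genes summed to 5.54 and 6.47 CPM in Tfh and 2.09 and 4.95 CPM in non-Tfh libraries, but without Pax5 the 7 others summed to 0.419 and 1.22 CPM against 2.09 and 4.50 CPM. The 6 germinal centre B cell genes summed to 60.0 and 69.1 CPM against 16.4 and 17.7 CPM, with Mef2b and Gcsam at 0 in every library and S1pr2, which Tfh cells also express, making up most of the sum. The 5 plasma cell genes summed to 174 and 226 CPM against 276 and 279.9 CPM, nearly all of it from Irf4 and Xbp1, which T cells also express (the 3 others summed to at most 2.80 CPM). The 6 myeloid genes summed to 22.2 and 26.7 CPM against 23.5 and 24.7 CPM, mostly from Cst3 (15.3 to 21.6 CPM). In Tfh T32, Tfh T53, non-Tfh T32 and non-Tfh T53, Lyz2 measured 1.09, 1.75, 0.149 and 4.39 CPM. Cd68 measured 3.69, 2.45, 2.31 and 0.788 CPM in the same order and was not called (log2 fold change 0.956). Of the 4 myeloid genes tested, only Itgam was called. It was lower in Tfh, at 0.168 and 0.525 against 2.16 and 2.03 CPM (edgeR adjusted p = 0.0421), on 2 and 3 counts in the Tfh libraries. The 5 dendritic genes, with Siglech at 0, summed to 2.60 and 3.15 against 3.21 and 6.75. The 2 CD8 T cell genes summed to 3.85 and 6.21 against 3.60 and 4.33. The part of these cells in the histone values was not tested.

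Histone genes were at nearly the same level in both Tfh libraries, whereas the non-Tfh libraries lay on either side of them, so that no difference between the groups passed the test. As a share of all counts, the 62 genes took 0.225% in Tfh T32 (exact Clopper-Pearson 95% interval 0.223 to 0.228%) and 0.228% in Tfh T53 (0.224 to 0.231%). Their share was 0.290% (0.287 to 0.292%) for non-Tfh T32 but 0.132% (0.130 to 0.135%) for non-Tfh T53. These intervals cover counting error only, and the gap between the non-Tfh libraries is far outside them. The summed level was 2337 CPM for Tfh T32 and 2278 for Tfh T53, against 2885 for non-Tfh T32 and 1284 for non-Tfh T53. The group means were 2308 CPM ± 41.4 for Tfh and 2084 ± 1132 for non-Tfh (SD over the 2 libraries of each), a ratio of 1.11 that is small beside the spread of the non-Tfh libraries. In bulk libraries such as these, fewer cells in S phase and less histone RNA per cell cannot be told apart.

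Within the libraries of 1 number, the direction depended on the number. The summed histone level of Tfh over non-Tfh was 0.810 within T32 and 1.77 within T53. Non-Tfh T32 was 2.25 times non-Tfh T53, while Tfh T32 was 1.03 times Tfh T53. All 5 protein classes had this pattern, with non-Tfh T53 lowest and non-Tfh T32 highest. The class sums of non-Tfh T32 over non-Tfh T53 were 1.90 for H1, 2.25 for H2A, 2.63 for H2B, 2.35 for H3 and 2.55 for H4. In the same order, Tfh T32 over Tfh T53 gave 0.998, 0.967, 1.04, 0.923 and 1.13. H1 genes, which link neighbouring nucleosomes, took 31.1 to 33.7% of the histone counts in the 3 other libraries and 39.8% in non-Tfh T53.

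**Figure D1:**
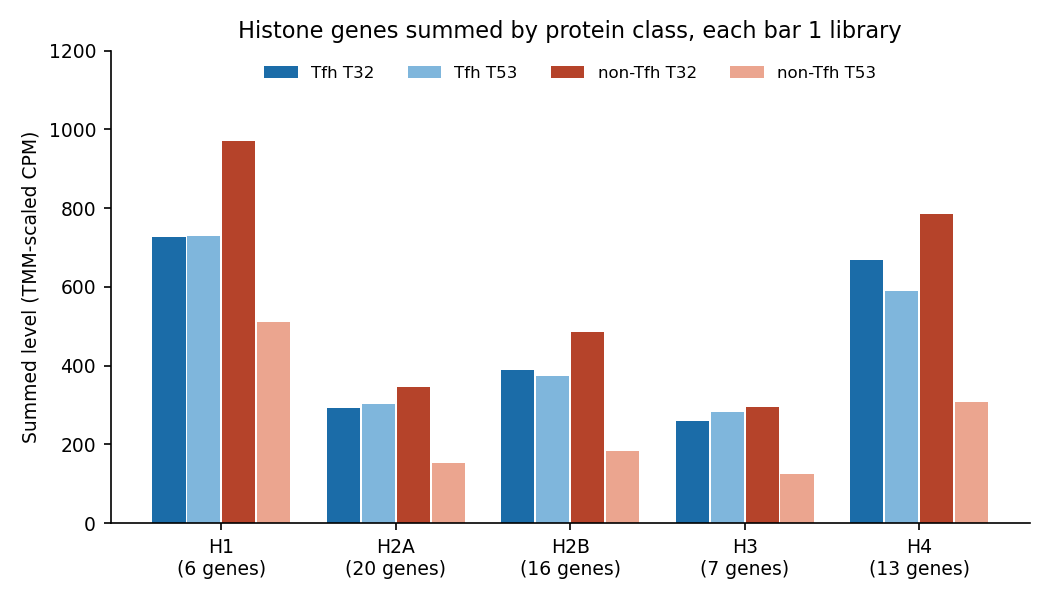
Summed level (TMM-scaled CPM, linear axis from 0) of the histone genes of each protein class, with 1 bar per library and no error bar. In every class the bar of non-Tfh T53 is the lowest and that of non-Tfh T32 the highest, with both Tfh bars between them.

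Of the 62 genes, 50 had enough counts to be tested across all genes. Of the 12 others, 6 had no count in any library (Hist1h1t, Hist1h2aa, Hist1h2aj, Hist2h2aa2, Hist2h3c1 and Hist1h4m) and 6 had at most 16 counts over the 4 libraries. With edgeR's quasi-likelihood test, 0 of the 50 passed an adjusted p of 0.05, against 8.49% of all 11702 genes tested, and 0 had an unadjusted p under 0.05. DESeq2 and limma-voom called 0 as well. Log2 fold changes (Tfh over non-Tfh) ran from -0.56 in Hist1h1a to 0.87 in Hist1h2ao, with a median of 0.18 against -0.0053 over all genes tested, and 36 were above 0. The 95% interval of a member's log2 fold change reached a median of 1.13 to either side, against 0.43 over all genes tested. For 41 of the 50 the interval reached a 2-fold change in at least 1 direction, so a change of that size lies within what these data allow for them.

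Level by level, both Tfh values lay between the non-Tfh values in 40 of the 50 members, with non-Tfh T32 on top, a pattern seen in 6.96% of all genes tested. The groups did not overlap in 4 of the 50, against 52.2% of all genes tested. Non-Tfh T32 was at least 2-fold above non-Tfh T53 in 42 of the 50, against 3.13% of all genes tested. Tfh T32 and Tfh T53 were within 1.5-fold of each other in 49 of the 50, against 86.5% of all. Non-Tfh T53 was the lowest library for 48 members and non-Tfh T32 the highest for 40. The fold of non-Tfh T32 over non-Tfh T53 had a median of 2.56 (0.891 to 5.30) over the members and 1.0 over all genes tested, and the same fold in Tfh cells had a median of 1.02 (0.755 to 2.39).

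**Figure D2:**
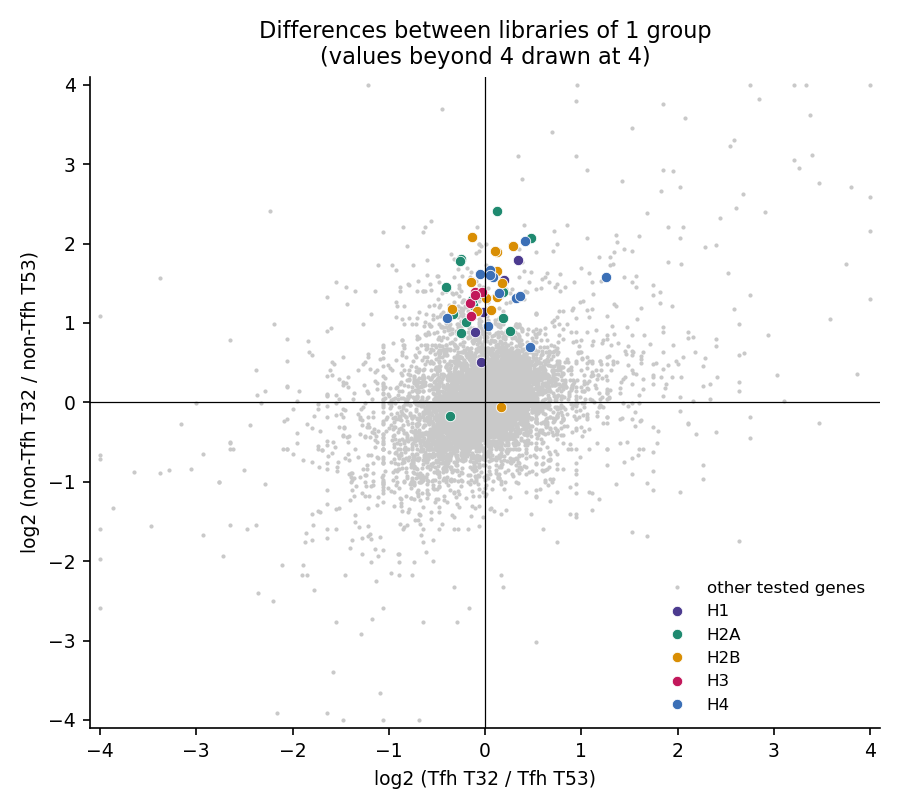
Each point is 1 gene tested; the x axis gives log2 of Tfh T32 over Tfh T53, the y axis log2 of non-Tfh T32 over non-Tfh T53, and histone genes are coloured by class (grey, other genes). The histone genes lie around 0 on the x axis and mostly above 1 on the y axis, where few other genes lie, and 2 of them (Hist2h2be and Hist3h2a) lie just below 0.

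Among the linker histone genes, Hist1h1c, Hist1h1e and Hist1h1d had more counts than any other member, whereas Hist1h1t had none. Hist1h1c, which encodes H1.2, measured 268 CPM (Tfh T32), 276 (Tfh T53), 333 (non-Tfh T32) and 235 CPM (non-Tfh T53) (log2 fold change -0.06 ± 0.180 SE, edgeR adjusted p = 0.885). Hist1h1e, which encodes H1.4, measured 162, 175, 209 and 113 CPM in the same order, and Hist1h1d, which encodes H1.3, 165, 167, 203 and 92.2 CPM. Both Tfh libraries were nearly equal for these genes and lay inside the non-Tfh range. Hist1h1b, which encodes H1.5, measured 75.2, 65.6, 110.1 and 37.7 CPM, a 2.92-fold gap between the non-Tfh libraries. Hist1h1a, which encodes H1.1, had the lowest fold change of all members (chosen after its values were seen), at 56.6 and 44.8 CPM in Tfh and 116 and 33.3 CPM in non-Tfh libraries, with an interval of -2.11 to 0.99. The gap between the non-Tfh libraries thus ran from 1.42-fold in Hist1h1c to 3.47-fold in Hist1h1a, genes of 1 class that lie in the same cluster on chromosome 13.

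Of the 15 tested H2A genes, 10 were above 0 in log2 fold change, with a median of 0.31. Hist1h2ak, an H2A gene of the large cluster, measured 70.6 and 77.1 CPM in the Tfh libraries (T32 before T53 and Tfh before non-Tfh, here and below) against 73.9 and 31.5 CPM in the non-Tfh libraries (log2 fold change 0.47 ± 0.399, edgeR adjusted p = 0.586). Here non-Tfh T53 stood apart below the 3 other libraries. Hist2h2ac, of the chromosome 3 cluster, measured 60.0, 52.6, 76.0 and 36.5 CPM, Hist1h2ab 38.1, 41.8, 45.2 and 18.6 CPM, and Hist1h2ai 24.7, 25.4, 28.6 and 11.1 CPM. The same order held in all 3, with non-Tfh T32 on top and non-Tfh T53 at the bottom. In 3 lower H2A genes, chosen after their values were seen, both Tfh libraries were above both non-Tfh libraries. Hist1h2ap measured 13.4 and 15.4 CPM in Tfh against 12.5 and 6.19 CPM, Hist1h2ad 8.98 and 10.7 against 8.65 and 2.48, and Hist1h2ao 2.85 and 2.62 against 2.39 and 0.450. Their adjusted p-values by edgeR were 0.390, 0.504 and 0.532.

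Hist3h2a was an exception among the H2A genes. It lies on chromosome 11 (58954685 to 58956830, plus strand), away from the large cluster, and its gene model runs 1700 bases past the stop codon. It measured 5.29 and 6.82 CPM in the Tfh against 5.82 and 6.53 CPM in the non-Tfh libraries (log2 fold change -0.04 ± 0.269, edgeR adjusted p = 0.957). Its 4 libraries overlapped, and non-Tfh T32 was 0.891 times non-Tfh T53. Its model overlaps Trim17 on the same strand.

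Of the 13 tested H2B genes, 10 were above 0, with a median of 0.21. Hist1h2be measured 81.5 and 78.0 CPM in the Tfh against 93.7 and 41.9 CPM in the non-Tfh libraries (log2 fold change 0.23 ± 0.379, edgeR adjusted p = 0.802). Hist1h2bb, whose promoter with 3 CCAAT matches is printed above, measured 69.2, 63.3, 91.6 and 29.0 CPM. Hist1h2bg measured 50.1, 53.2, 56.0 and 25.3 CPM, and the level in non-Tfh T53 was again the only one set apart. Hist1h2bj had the widest gap of the 4 most abundant H2B genes, with 33.9 and 27.6 CPM in Tfh against 52.9 and 13.5 CPM in non-Tfh libraries, 3.92-fold between the last 2.

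Hist2h2be did not have the order of the other H2B genes. It measured 8.22 and 7.35 CPM in the Tfh against 10.4 and 10.8 CPM in the non-Tfh libraries, so that both Tfh libraries were below both non-Tfh libraries and neither pair differed by more than 1.12-fold. Its log2 fold change was -0.43 ± 0.210 (95% interval -0.94 to 0.07), with an unadjusted p of 0.0815 and an adjusted p of 0.300 by edgeR, the lowest of all members, and it was named after its values were seen. Of its 75-base stretches none was shared with another gene. Its interval excludes a 2-fold change in either direction. Of the H2B genes of chromosome 11, Hist3h2ba measured 10.7, 11.9, 12.8 and 4.5 CPM and followed the order of the large cluster, as did the pseudogene Hist3h2bb-ps with 3.19, 3.50, 7.61 and 1.80 CPM.

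The 5 tested H3 genes were all above 0, with a median of 0.43 and the lowest adjusted p at 0.625 (edgeR). Hist1h3e measured 103 and 113 CPM in the Tfh against 112 and 52.8 CPM in the non-Tfh libraries. Hist1h3c measured 58.5, 62.8, 64.6 and 24.6 CPM, Hist1h3a 41.9, 46.5, 58.7 and 24.6 CPM, and Hist1h3b 33.8, 34.5, 35.7 and 13.6 CPM. In Hist1h3e, Hist1h3c and Hist1h3b the Tfh libraries and non-Tfh T32 were close together and non-Tfh T53 stood well below them. The fold between the non-Tfh libraries was narrow over the class, from 2.12 to 2.62.

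Of the 12 tested H4 genes, 9 were above 0, with a median of 0.066. Hist1h4d measured 143 and 139.9 CPM in the Tfh against 165 and 85.0 CPM in the non-Tfh libraries (log2 fold change 0.18 ± 0.313, edgeR adjusted p = 0.815). Hist1h4c measured 110.3, 88.5, 116 and 46.8 CPM, Hist1h4h 103, 93.0, 102 and 39.1 CPM, and Hist1h4f 77.8, 73.3, 85.9 and 28.8 CPM. Hist4h4, the only member on chromosome 6 (136801553 to 136804415, minus strand), measured 27.6, 20.6, 36.8 and 9.0 CPM, a 4.08-fold gap. Hist2h4, named after its values were seen, was the only member whose Tfh libraries differed by over 1.5-fold: it measured 43.9 CPM in Tfh T32 and 18.4 in Tfh T53, and 54.3 and 18.2 CPM in the non-Tfh libraries, so that both T32 libraries were high and both T53 libraries low.

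**Figure D3:**
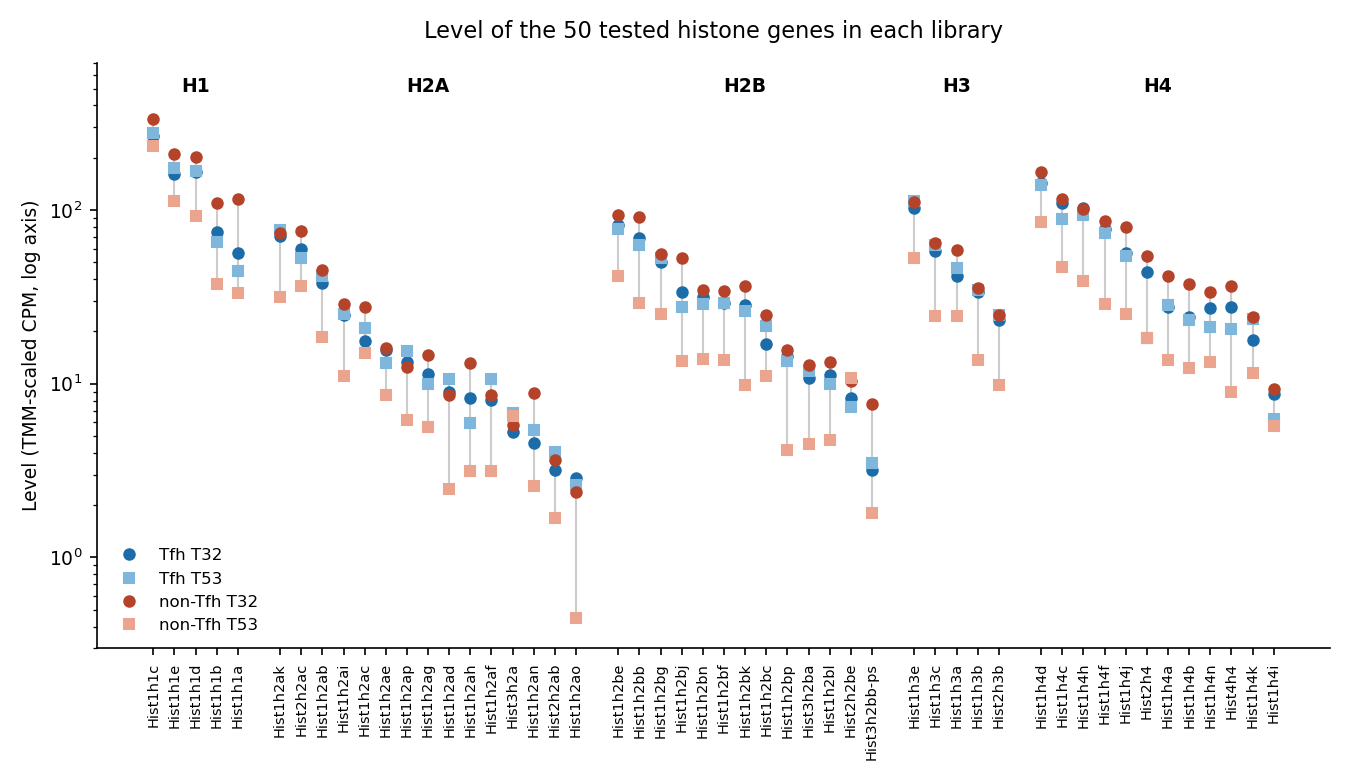
Level of each of the 50 tested histone genes (TMM-scaled CPM, log axis) in the 4 libraries, grouped by protein class and ordered by mean level, with a grey line over the range and no error bar. In 48 genes the lowest point is non-Tfh T53; Hist2h2be and Hist3h2a are the exceptions.

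Per kilobase of coding sequence, the order of the members by mean level over the 4 libraries was led by Hist1h1c (435 CPM per kilobase), Hist1h4d (427), Hist1h4c (290.1), Hist1h4h (269.7), Hist1h1e (249.6), Hist1h1d (236), Hist1h3e (231) and Hist1h4f (213). The first H2B gene was Hist1h2be (194), at rank 9, and the first H2A gene Hist1h2ak (161), at rank 12. Neighbours among these 8 differed by less than the fold between the non-Tfh libraries for either gene. Per kilobase of annotated exon, which is longer where a gene model runs on past the stem-loop, Hist1h4h (179) led Hist1h1c (178), the H2A gene Hist1h2ak was at rank 4 and the H2B gene Hist1h2bb at rank 5, while Hist1h1d fell to rank 32 and Hist1h2be, with a model of 4446 exon bases, to rank 38.

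Members with long gene models were compared with the rest, since a model that runs on can hold both stem-loop-ended and longer transcripts. In the 12 tested members with at least 500 bases after the stop codon, the fold of non-Tfh T32 over non-Tfh T53 had a median of 2.07 (0.891 to 4.08). In the 37 with fewer bases it had a median of 2.62 (1.62 to 5.30), and the pseudogene Hist3h2bb-ps, which has no stop codon in the annotation, entered neither group. The ranges overlapped widely, and the lowest 3 values (Hist3h2a, Hist2h2be and Hist1h1c, the last at 1.42) were all in long models. These are descriptions of the same 2 libraries, with no test.

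Calls of histone genes appeared when non-Tfh T32 was left out. In each such fit the lone non-Tfh library was assumed to vary like the Tfh libraries. The summed levels did not meet this assumption, with an SD of 1132 CPM in non-Tfh and 41.4 in Tfh. Non-Tfh T53 was the lowest library for 48 members, so the direction without non-Tfh T32 was set beforehand. The adjusted p-values of these fits take in no spread between non-Tfh libraries. Without non-Tfh T32, edgeR called 29 of the 50 members higher in Tfh cells, against 3.83% of all genes tested, with a median log2 fold change of 1.06. The lowest adjusted p-values were those of the H4 genes Hist1h4f (log2 fold change 1.39 ± 0.164, adjusted p = 0.00402) and Hist1h4h (1.33 ± 0.159, adjusted p = 0.00431). By class the 29 comprised H1 genes such as Hist1h1d (0.85), H2A genes such as Hist1h2ak (1.23), H2B genes such as Hist1h2bb (1.19) and H3 genes such as Hist1h3c (1.30).

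Without non-Tfh T53, edgeR called 3 of the 50 lower in Tfh cells, against 3.59% of all genes tested, a share of the members close to that background, with a median log2 fold change of -0.26. These were Hist1h1a (-1.18 ± 0.170, adjusted p = 0.00621), Hist1h2bj (-0.77 ± 0.180, adjusted p = 0.0411) and Hist1h1b (-0.64 ± 0.151, adjusted p = 0.0426). Hist1h2bj and Hist1h1b were called in both fits with opposite signs: without non-Tfh T32 they stood at 1.20 and 0.91. Hist2h2be kept its sign in both fits, at -0.46 and -0.40, and was called in neither. With Tfh T32 or Tfh T53 left out, 0 members were called.

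**Figure D4:**
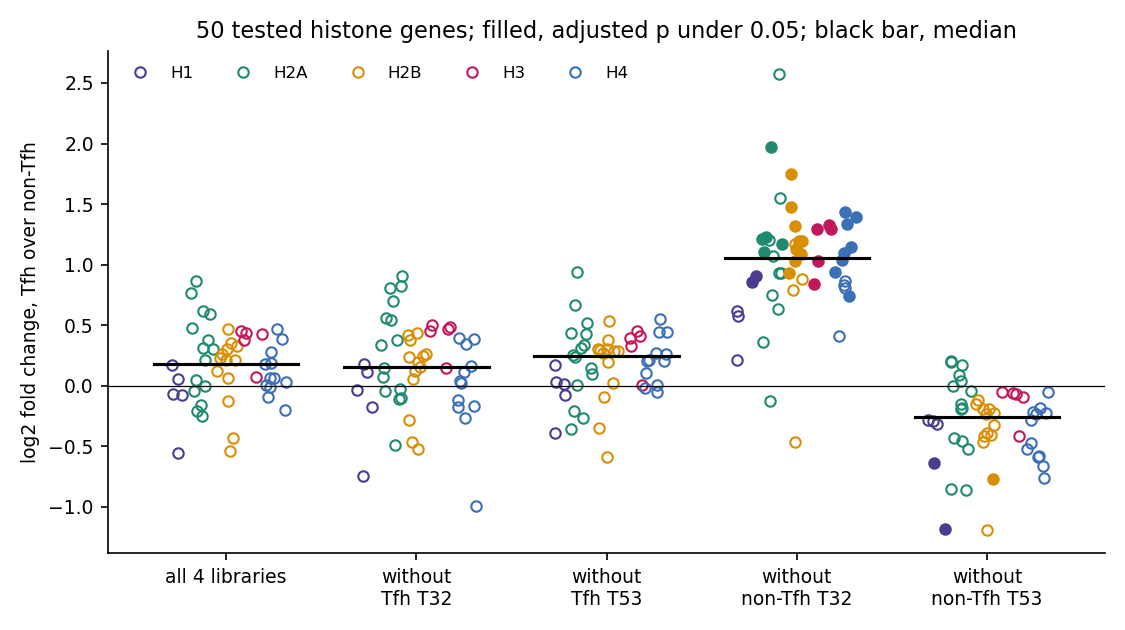
Log2 fold change (Tfh over non-Tfh) of the 50 tested histone genes in the fit of all 4 libraries and in the fits without 1 library, coloured by class; filled points have an adjusted p under 0.05 and black bars are medians. The points lie around 0 with all libraries, around 1.06 without non-Tfh T32 and around -0.26 without non-Tfh T53.

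The other genes of histone supply were examined from lists. Histone variants, most of which are made throughout the cell cycle from messengers with poly(A), had 1 of 9 tested genes called. Over all genes tested the share called was 8.49%, here and for the lists below. H2afx, which is known to make a stem-loop-ended messenger as well, had the widest gap of the list between the non-Tfh libraries, 1.96-fold. H2afv, which encodes an H2A.Z protein, was higher in Tfh cells, with 34.4 and 37.6 CPM in Tfh against 23.5 and 21.2 CPM in non-Tfh libraries (log2 fold change 0.68 ± 0.145, edgeR adjusted p = 0.0385). It was no longer called with non-Tfh T53 left out, with any 1 Tfh library left out, or with scaling by library totals. In the variants the median fold of non-Tfh T32 over non-Tfh T53 was 1.27, below the 2.56 of the replication-dependent genes.

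Genes that transcribe histone genes or cut their transcripts had 0 of 16 called in either direction, with a median log2 fold change of 0.015. Srrt, which links capped transcripts to processing, measured 149, 147, 155 and 143 CPM, in the order given for the histone genes, and Sympk, the scaffold of the cleavage complex, 125, 137, 116 and 121 CPM. In both the 4 libraries were close together. Genes of histone messenger decay had 0 of 7 called, with Zcchc6, a uridylating enzyme, at 179.9, 179, 179 and 183 CPM and Upf1, an RNA helicase, at 117, 114, 128 and 111 CPM. Histone chaperones had 0 of 21 called, with Atrx at 444, 463, 515 and 542 CPM and Ubn1 at 206, 196, 185 and 188 CPM. Between the non-Tfh libraries the median fold of these lists was 1.09, 1.02 and 1.21.

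Genes of DNA replication and of division shared the gap between the non-Tfh libraries in part. The S phase list had 0 of 30 called, and all 30 were higher in non-Tfh T32 than in non-Tfh T53, with a median fold of 1.71. Mcm6, a subunit of the replicative helicase, measured 227, 215, 171 and 107 CPM, and Mcm4, another subunit, 127, 108, 129.5 and 95.2 CPM. Non-Tfh T53 was the lowest library for both. The list of G2 and mitosis genes had 0 of 18 called, and all 18 were higher in non-Tfh T32 than in non-Tfh T53, with a median fold of 2.11. Mki67, a marker of dividing cells, measured 348, 495, 407 and 251 CPM and Top2a, which untangles chromosomes, 232, 243, 272 and 135 CPM.

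In the Tfh libraries 15 of the 18 G2 and mitosis genes and 23 of the 30 S phase genes were lower in T32 than in T53, and 24 of the 50 histone genes were. Summed over the list, G2 and mitosis genes stood at 1011 CPM in Tfh T32 and 1289 in Tfh T53, S phase genes at 1238 and 1277, and histone genes at 2337 and 2278. Their median folds of T32 over T53 in Tfh cells were 0.824, 0.887 and 1.02.

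The RNAs without poly(A) that are not histone messengers were mostly higher in T32 than in T53 in both groups. Their list had 0 of 10 called, with a median fold of T32 over T53 of 2.87 in Tfh and 2.80 in non-Tfh cells. These medians lean on 4 RNAs with at most 5 counts in a T53 library. Of those with more counts, Rmrp gave 1.87 in Tfh and 2.25 in non-Tfh cells, Rn7sk 1.49 and 1.89, and Terc 1.21 and 1.59. Scarna2 gave 1.64 and 1.16, and Rn7s1 2.70 and 0.994. Rn7sk, a regulator of transcription elongation, measured 7958 CPM in Tfh T32 and 5359 in Tfh T53, and 6428 and 3407 CPM in the non-Tfh libraries. Rpph1, the RNA of RNase P, measured 2368 and 779 CPM, and 2848 and 664 CPM. Both T32 libraries were above both T53 libraries for these 2 RNAs. Summed histone levels of T32 over T53 were 1.03 in Tfh and 2.25 in non-Tfh cells. The same folds were 0.970 and 1.63 for the S phase list, and 0.785 and 1.92 for the G2 and mitosis list. The part of library preparation and of the share of dividing cells in the histone values was not tested.

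**Figure D5:**
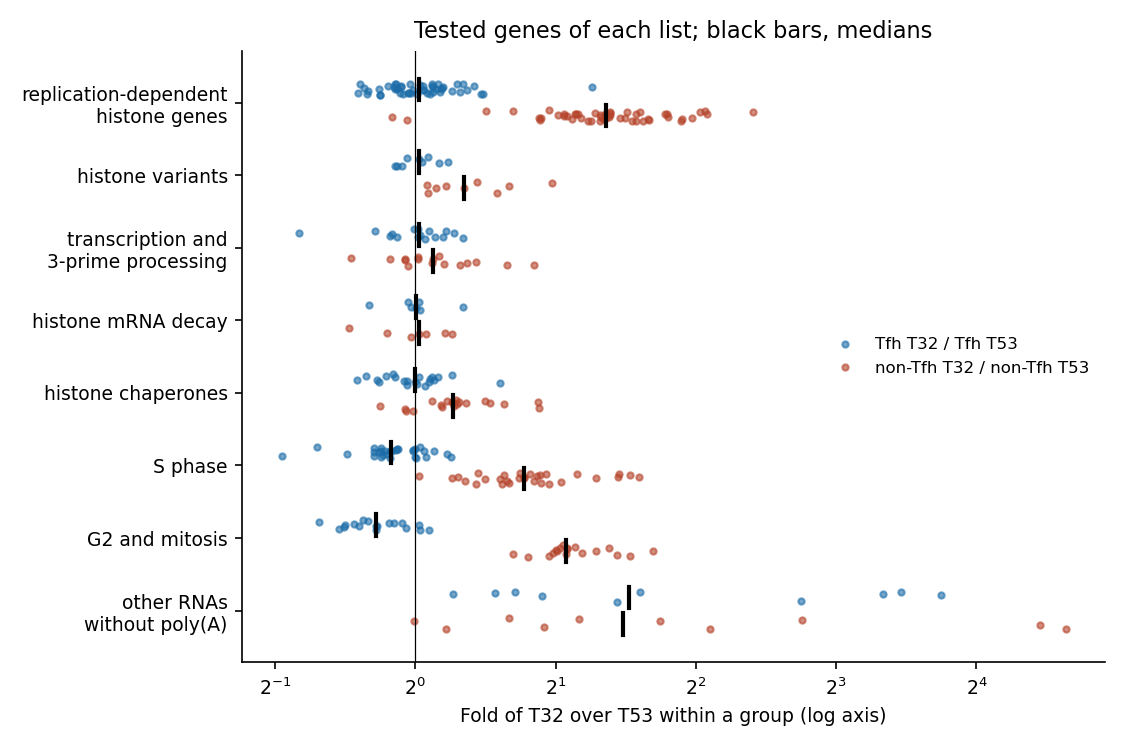
Fold of T32 over T53 within Tfh (blue) and within non-Tfh (red) cells for each tested gene of 8 lists, on a log axis, with black bars at the medians. Histone genes have medians of 1.02 and 2.56. The medians of the G2 and mitosis and S phase lists lie below 1 in Tfh and above 1 in non-Tfh cells. Of the other RNAs without poly(A), 10 of 10 lie above 1 in Tfh and 9 of 10 in non-Tfh cells.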

How the data were processed

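Stranded total RNA libraries were sequenced in pairs of 75-base reads, per the labels' protocols. Each deposited file gives whole, unnormalised counts by Ensembl identifier. TopHat2, Bowtie2, HTSeq and the build GRCm38 (mm10) are listed per the submitters' processing notes. Versions, the annotation release, the strand setting and the treatment of reads with several positions are not given in the sources used here. GENCODE vM21 gave symbols to 37693 of 39179 identifiers, and the 1486 others stayed in the library totals.

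All 4 libraries were fitted with edgeR 4.0.16 in R 4.3.3 (filterByExpr, TMM, robust quasi-likelihood F test with the group alone, 2 residual degrees of freedom, Benjamini-Hochberg over 11702 genes, threshold 0.05). SEs were derived from F (the size of the log2 fold change divided by its root). The code was tested on simulated data. Sequences were searched in Python 3.11.15. Alternatives were other scalings, filters, DESeq2 1.42.0, limma-voom (limma 3.58.1), a replicate block and each library left out. The 4 most abundant genes of each class, the Hist3 and Hist4 members, called genes and, in the 7 other lists, up to 4 called or the 2 most abundant genes are named. Members and lists were chosen with earlier results of these data known. 1 further marker list is not reported here.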

Additional observations from a re-analysis of the deposited data

How the results depend on the processing

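Histone genes called numbered 0 of 50 in the fit of all libraries, and 0 under RLE, upper-quartile and library-total scaling, TMM without the histone genes, no count filter (0 of 56, with 3 at an unadjusted p under 0.05), at least 5 CPM in 2 libraries (0 of 47), the robust option off, DESeq2 and limma-voom. Leaving out a library gave 0 to 29 calls: 29 higher without non-Tfh T32, 3 lower without non-Tfh T53. The log2 ratio of summed levels was 0.15, ran from 0.10 to 0.15 over the scalings, and from -0.32 to 0.85 with a library left out. Genes called in the 7 other lists numbered 1 of 110, but 0 with library totals, 10 of 113 with no count filter, 4 with DESeq2 and 0 to 9 with a library left out; the cause was not tested. With a replicate block for T32 and T53, 0 of 50 histone genes and 6 of 110 genes of the other lists were called. Over all genes, 2116 were called with that block against 994 in the main fit. The calls over all genes were 952 with library totals, 1986 with no count filter and 1139 with DESeq2. The deviations of same-numbered libraries correlated at r = 0.371 across genes, but the labels tie the numbers to nothing. Ranking per kilobase of exon, chosen after seeing the data, kept 6 of the 10 leading members among the first 10. With 2 libraries per group and 1 non-Tfh library deciding the direction, differences below 2-fold could not be resolved for most members.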
